A study of Danio rerio with 6 samples.

Results

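The genes described are 10 heat-shock genes of the zebrafish (Danio rerio), taken from the deposited table by their symbols. They are hsp70.1, hsp70.2, hsp70.3 and hsp70l of the Hsp70 family, the Hsp40 co-chaperone gene dnajb1b, hsp90aa1.1 and hsp90aa1.2 of the Hsp90 family, and hspb1, hspb9 and hspb11 of the small heat-shock family. All 10 symbols were present once each among the 31624 genes listed, and all 10 passed the filter on low counts that left 20555 genes for testing. Messenger RNA of whole embryos was sequenced in 3 libraries labelled Trdmt1 knockout and in 3 libraries titled as controls, whose genotype label is wildtype. The kind of knockout allele, the strain, the embryo age, the rearing temperature and the number of embryos per library are not given in the sources used here. The labels do not tell separate clutches or cultures apart either, so every p-value measures only the spread between these libraries, which may be technical.

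Heat-shock proteins are molecular chaperones. Under heat or other protein damage the transcription factor Hsf1 is freed from chaperone complexes, binds heat-shock elements and switches on the inducible genes. Hsp70 binds unfolded stretches of protein in cycles driven by ATP, Hsp40 proteins with a J domain start each cycle, Hsp90 finishes the folding of kinases, receptors and myosin, and small heat-shock proteins hold unfolding proteins in a state from which they can be rescued. Trdmt1, also called Dnmt2, methylates transfer RNAs, and in Drosophila flies that lack it are known to tolerate heat and other stress poorly.

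Reads counted in genes totalled between 15191166 and 16085068 in the knockout libraries and between 12877132 and 18721589 in the control libraries. The targeted transcript, trdmt1, stood at 1.59, 1.40 and 1.07 RPKM (reads per kilobase of exon, scaled to the library total) in knockouts 1, 2 and 3, against 3.10, 2.60 and 1.08 RPKM in controls 1, 2 and 3. Its groups overlapped, so it does not check the labels. Knockouts 1 and 2 were nearly alike, since their counts gave a chi-square per degree of freedom of 1.58 over genes, where the remaining 14 library pairs gave 11.7 to 75.6. Knockout 3 stood apart in tissue genes: 6 photoreceptor genes summed to 495 RPKM there and to between 12.2 and 37.5 RPKM elsewhere. The 5 exocrine pancreas genes in the table summed to 112 RPKM there and to between 7.12 and 11.3 RPKM elsewhere. The 2 hatching gland genes in the table summed to 17.6 RPKM there and to between 100 and 231 RPKM elsewhere.

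The inducible Hsp70 genes were the members with the largest differences. All 4 copies were higher in every knockout library than in any control library, by 2.99- to 3.83-fold in the fitted values, but none passed the test over all genes. Such a separation upward was seen in 7.62% of all genes tested, and 0.102% passed upward. The controls themselves differed several-fold in these genes, and control 2 was the lowest library for each copy. In zebrafish, hsp70l is induced by heat and is also expressed in the developing lens. In the order of genes in the RefSeq annotation of another assembly, hsp70.1, hsp70.2 and hsp70.3 lie next to each other with no gene starting between them, and hsp70l lies on another chromosome.

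The gene hsp70.3 (ENSDARG00000021924) stood at 19.72, 20.35 and 29.09 RPKM in knockouts 1, 2 and 3, against 10.45, 3.19 and 7.21 RPKM in controls 1, 2 and 3. The groups did not overlap, knockout 3 was the highest library, and the nearest control was control 1. The gene hsp70l (ENSDARG00000055723) stood at 17.16, 17.64 and 22.22 RPKM in the knockouts, against 11.19, 2.16 and 6.17 RPKM in the controls. It had the same order of libraries as hsp70.3. The gene hsp70.2 (ENSDARG00000092362) stood at 10.40, 10.48 and 13.58 RPKM in the knockouts, against 5.27, 1.51 and 3.81 RPKM in the controls. Again the highest library was knockout 3, and the lowest was control 2. The copy with the fewest reads was hsp70.1 (ENSDARG00000029688), at 2.05, 2.55 and 3.42 RPKM in the knockouts, against 1.31, 0.21 and 0.61 RPKM in the controls. Its values rest on 73, 94 and 119 reads in the knockouts and on 56, 9 and 18 reads in the controls.

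**Figure D1:**
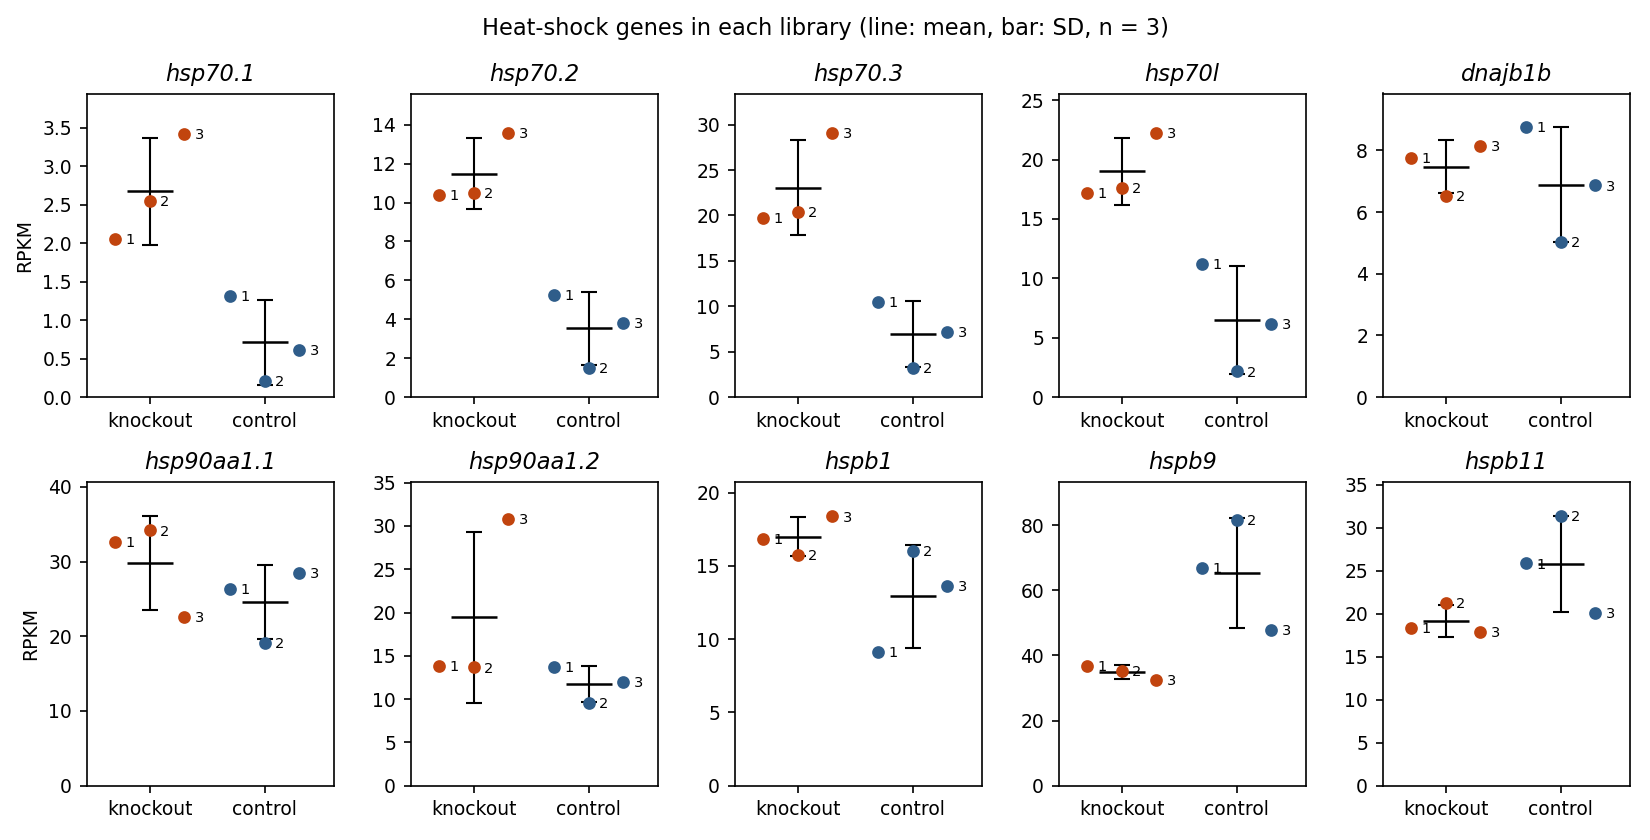
RPKM of each heat-shock gene in every library, with knockouts on the left and controls on the right of each panel, numbered points for libraries, a line for the mean and a bar for the SD (n = 3 per group). In the 4 Hsp70 panels the lowest knockout lies above the highest control, in the hspb9 panel the highest knockout lies below the lowest control, and in the other 5 panels the groups overlap on this scale.

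Log2 fold changes, knockout over control, were 1.94 ± 0.54 (SE) for hsp70.1, 1.74 ± 0.39 for hsp70.2, 1.76 ± 0.39 for hsp70.3 and 1.58 ± 0.50 for hsp70l. With edgeR's quasi-likelihood test and Benjamini-Hochberg adjustment over all 20555 genes, the adjusted p was 0.367, 0.234, 0.242 and 0.515 in the same order of genes. Their log2 fold changes exceeded those of 99.2% to 99.6% of all genes tested. As the members were chosen with earlier results known, this rank describes them and does not test them. DESeq2, which estimates the spread differently, called hsp70.1, hsp70.2 and hsp70.3 (DESeq2 adjusted p = 0.0215, 0.00058 and 0.000186) and did not call hsp70l (DESeq2 adjusted p = 0.436). By DESeq2, 0.835% of all genes were called higher. DESeq2 was run on all libraries only, so its calls were not checked with the nearly alike knockouts 1 and 2 summed. Without control 1 the log2 fold change was 2.78 for hsp70.1 and 2.23 for hsp70l, and without control 2 it was 1.49 and 1.16.

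The copies are close relatives, and how reads matching several of them were counted is not given in these sources. The split between the copies is therefore uncertain, and reads could be missing from their sum too. Summed over the 4 copies, Hsp70 stood at 49.3, 51.0 and 68.3 RPKM in knockouts 1, 2 and 3, against 28.2, 7.07 and 17.8 RPKM in controls 1, 2 and 3. The knockout mean of 56.2 ± 10.5 RPKM was 3.18 times the control mean of 17.7 ± 10.6 RPKM (SD, n = 3 each). The lowest knockout was 1.75 times the highest control, whereas the highest control was 3.99 times the lowest control. The ratio of the means was 4.52 without control 1 and 2.44 without control 2, and it lay between 2.84 and 3.37 when any 1 of the other 4 libraries was left out.

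The make-up of the sum was compared between libraries. The share of hsp70.3 was 39.9% to 42.6% in the knockouts and 37.0% to 45.1% in the controls. That of hsp70l was 32.5% to 34.8% in the knockouts and 30.6% to 39.7% in the controls. The share of hsp70.2 was 19.9% to 21.1% in the knockouts and 18.7% to 21.4% in the controls, and hsp70.1 made up 4.16% to 5.01% in the knockouts and 2.97% to 4.64% in the controls. The ratio of hsp70l to hsp70.3 was 0.764 to 0.870 in the knockouts, against 1.07, 0.677 and 0.856 in controls 1, 2 and 3. Control 1 was the one library in which hsp70l exceeded hsp70.3, and hsp70.1 had the smallest share in each library, as the stacked bars of the copies show.

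**Figure D2:**
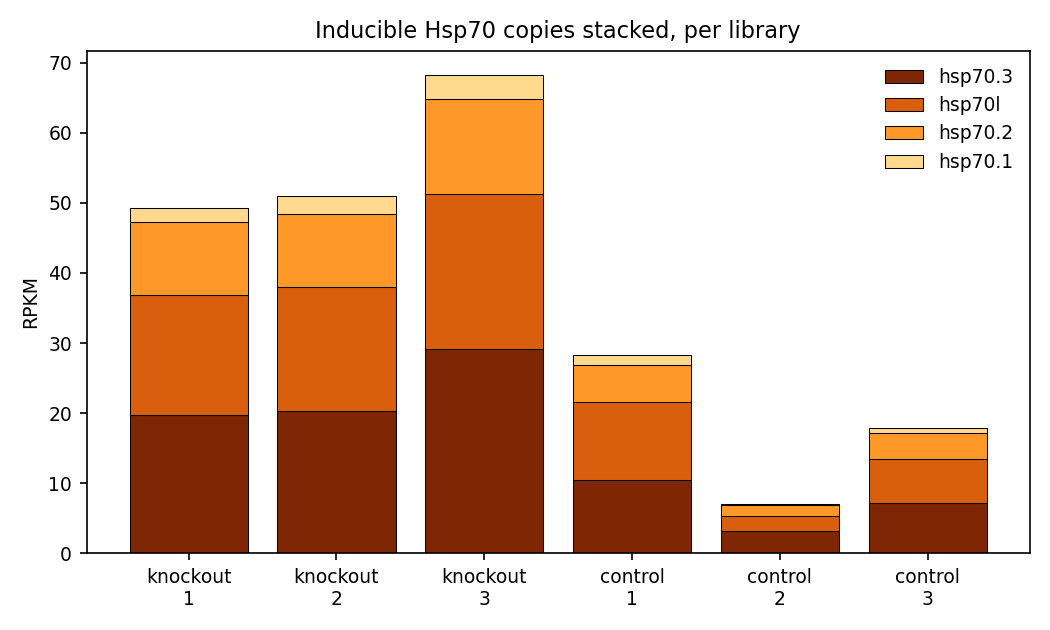
Stacked RPKM of hsp70.3, hsp70l, hsp70.2 and hsp70.1 in each library, with bar height giving the sum. The knockout bars reach 49.3 to 68.3 RPKM and the control bars 7.07 to 28.2 RPKM, and hsp70.1 is the smallest segment of each bar.

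As counted, the inducible copies together stood far below the constitutive Hsp70 gene hspa8 in RPKM. Any reads missing from the copies would make their sum too low. The gene hspa8, for the constitutive Hsc70 chaperone, stood at 1074.11, 1094.52 and 2004.42 RPKM in knockouts 1, 2 and 3, against 1134.24, 1019.82 and 1328.81 RPKM in controls 1, 2 and 3. Its groups overlapped, and knockout 3 was the highest library. The summed inducible copies amounted to 4.59%, 4.66% and 3.41% of the hspa8 level in the knockouts, against 2.49%, 0.693% and 1.34% in the controls. On this ratio too, every knockout lay above every control.

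The Hsp40 gene dnajb1b (ENSDARG00000041394), whose product stimulates Hsp70's ATPase and which is itself a heat-shock gene, showed no such separation of the groups. It stood at 7.76, 6.52 and 8.14 RPKM in the knockouts, against 8.76, 5.04 and 6.86 RPKM in the controls. The highest library was a control and the groups overlapped. The fit gave a log2 fold change of 0.15 ± 0.23 (SE; edgeR adjusted p = 0.901), and it was -0.03 without control 2.

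The Hsp90 genes hsp90aa1.1 and hsp90aa1.2, neighbours in the RefSeq order, differed in which libraries were high. The gene hsp90aa1.1 (ENSDARG00000010478), known in zebrafish for expression in developing skeletal muscle, where its product is needed to assemble myosin thick filaments, stood at 32.66, 34.17 and 22.55 RPKM in the knockouts. In the controls it stood at 26.31, 19.08 and 28.49 RPKM. Knockouts 1 and 2 lay above all controls and knockout 3 lay within their range. Its fitted log2 fold change was 0.31 ± 0.22 (SE; edgeR adjusted p = 0.79). The 9 fast muscle marker genes, all detected, summed to between 23195 and 27788 RPKM in the knockouts and to between 24841 and 31210 RPKM in the controls. Knockout 3 was the lowest library for the muscle sum and the lowest knockout for hsp90aa1.1. Control 2, in contrast, was the highest library for the muscle sum and the lowest for hsp90aa1.1. The part of muscle RNA in the hsp90aa1.1 values was not tested. In RNA of whole embryos, fewer cells of a type and less RNA per cell cannot be told apart.

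The gene hsp90aa1.2 (ENSDARG00000024746), a stress-inducible Hsp90 gene, stood at 13.87, 13.65 and 30.82 RPKM in the knockouts, against 13.74, 9.53 and 11.99 RPKM in the controls. Only knockout 3 stood well above the controls, and knockouts 1 and 2 were level with control 1. Its fitted log2 fold change was 0.76 ± 0.32 (SE; edgeR adjusted p = 0.65), and 0.27 without knockout 3. The ratio of hsp90aa1.2 to hsp90aa1.1 in RPKM was 0.425, 0.399 and 1.37 in knockouts 1, 2 and 3, against 0.522, 0.499 and 0.421 in the controls. Knockout 3 was thus the one library in which hsp90aa1.2 was the higher of the pair. The part that its tissue make-up has in that value was not tested. The pair together amounted to 5.72% to 6.27% of the level of hsp90ab1, the constitutive Hsp90 gene, in the knockouts, against 4.64% to 5.77% in the controls.

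The small heat-shock genes did not share a direction. The gene hspb9 (ENSDARG00000078674), the most abundant member per length in either group, was lower in the knockouts, at 36.84, 35.28 and 32.58 RPKM, against 66.82, 81.52 and 47.86 RPKM in the controls. The groups did not overlap, and the knockouts were close together while the controls spanned a wider range. That closeness is to be read beside the near agreement of knockouts 1 and 2 in all genes. The knockout mean was 34.9 ± 2.16 RPKM and the control mean 65.4 ± 16.9 RPKM (SD, n = 3 each). The fit gave a log2 fold change of -0.86 ± 0.19 (SE; edgeR adjusted p = 0.208), below that of all but 1.46% of genes tested. DESeq2 called it lower (DESeq2 adjusted p = 0.0153), as it did 0.196% of all genes. The highest control for hspb9 was control 2, the library with the least Hsp70. The lowest control for hspb9 was control 3, whereas the control with the most Hsp70 was control 1.

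The gene listed as hspb11 (ENSDARG00000002204), which the gene name table gives as hspb9l, stood at 18.36, 21.30 and 17.88 RPKM in the knockouts, against 25.85, 31.37 and 20.12 RPKM in the controls. Knockout 2 lay above control 3, so the groups overlapped. As with hspb9, control 2 was the highest library. Its fitted log2 fold change was -0.38 ± 0.18 (SE; edgeR adjusted p = 0.708). The gene hspb1 (ENSDARG00000041065), the zebrafish counterpart of human Hsp27, stood at 16.84, 15.74 and 18.37 RPKM in the knockouts, against 9.10, 16.03 and 13.64 RPKM in the controls. In RPKM knockout 2 lay below control 2, whereas in counts scaled to library size by the trimmed mean of M-values (TMM-scaled CPM) all knockouts lay above all controls. For hspb1 the fit gave 0.43 ± 0.21 on the log2 scale (SE; edgeR adjusted p = 0.714). The ratio of hspb9 to hspb1 was 2.19, 2.24 and 1.77 in knockouts 1, 2 and 3, against 7.34, 5.09 and 3.51 in controls 1, 2 and 3. Its lack of overlap adds nothing to the single genes. It follows from hspb9 being lower and hspb1 higher in every knockout than in any control in TMM-scaled CPM.

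Over the 10 genes, edgeR called 0 higher and 0 lower at an adjusted p under 0.05, where it called 0.102% of all genes higher and 0.0146% lower. At an unadjusted p under 0.05, 5 were higher and 1 lower by edgeR, against 4.06% and 3.41% of all genes. The 5 higher were the Hsp70 copies and hsp90aa1.2, and the 1 lower was hspb9. DESeq2 called 3 higher and 1 lower, where it called 0.835% of all genes higher and 0.196% lower. In TMM-scaled CPM, 6 members had all knockouts above all controls and 1 had all knockouts below, against 7.62% and 7.44% of all genes tested. In deposited RPKM the counts were 4 and 1, because hspb1 and hsp90aa1.2 overlapped narrowly on that scale. The shares of all genes given here are for TMM-scaled CPM, so they are no measure for the RPKM counts. The members had a median log2 fold change of 0.60, where that of all genes tested was -0.00385. The Hsp70 copies, among which some reads may not be told apart, enter these counts as separate members. Since the members were chosen with earlier results known, these counts describe the list and do not test it.

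**Figure D3:**
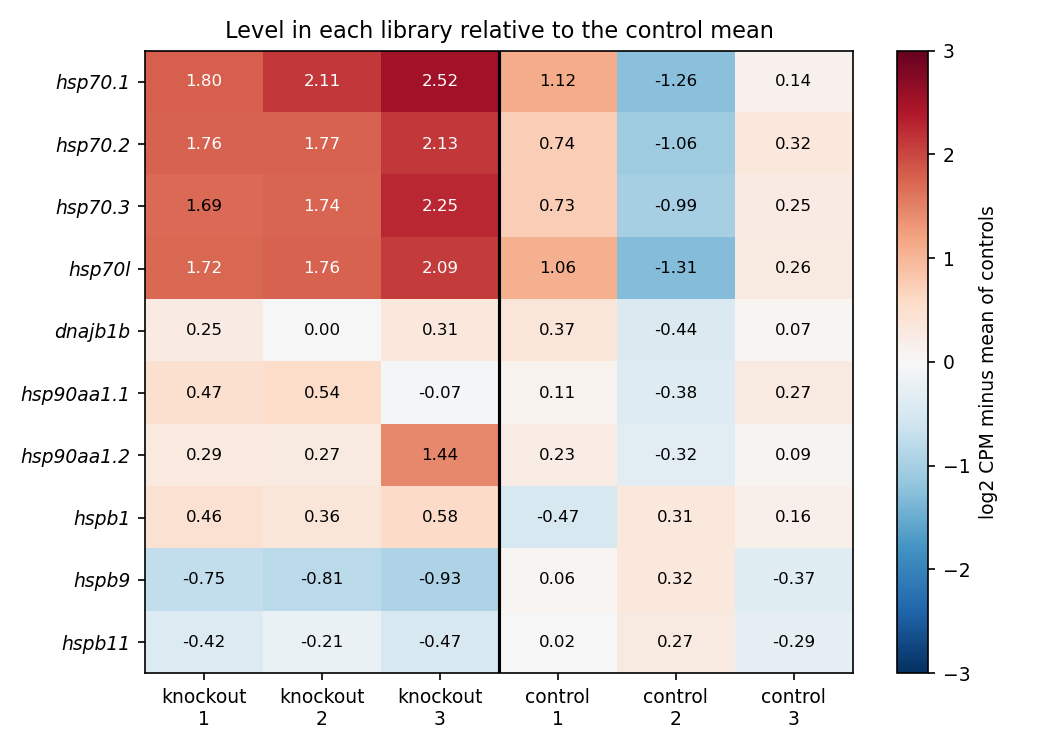
Level of each heat-shock gene in each library as log2 CPM relative to the 3 controls averaged, with knockouts to the left of the line. The Hsp70 rows run from 1.69 to 2.52 in the knockouts and from -1.31 to 1.12 in the controls, hspb9 runs from -0.93 to -0.75 and from -0.37 to 0.32, and hsp90aa1.2 reaches 1.44 in knockout 3 and no more than 0.29 elsewhere.

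The spread within groups differed between the members. The knockout range of hsp70l was 0.37 on the log2 CPM scale and its control range 2.37, larger than in 99.3% of all genes. Over the Hsp70 copies the knockout ranges lay between 0.37 and 0.72 and the control ranges between 1.72 and 2.39. The median gene tested had a knockout range of 0.50 and a control range of 0.43. Knockouts 1 and 2 differed by at most 0.31 in any member, which is to be read beside the near agreement of these 2 libraries in all genes. The knockout range of hsp90aa1.2 was 1.16, the widest of the members, and it came from knockout 3.

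Ordered by level per length, in the knockouts hspb9 had the highest mean, followed by hsp90aa1.1 at 29.8 ± 6.32, hsp70.3 at 23.1 ± 5.24, hsp90aa1.2 at 19.4 ± 9.85, hspb11 at 19.2 ± 1.85, hsp70l at 19.0 ± 2.79 and hspb1 at 17.0 ± 1.32 RPKM (SD, n = 3). Neighbours in that order overlapped down to hspb1. Below it came hsp70.2 at 11.5 ± 1.81, dnajb1b at 7.47 ± 0.847 and hsp70.1 at 2.67 ± 0.693 RPKM, each apart from the one above it in every library. In the controls hspb9 stood apart from hspb11 at 25.8 ± 5.63 RPKM. That gene overlapped hsp90aa1.1 at 24.6 ± 4.93 RPKM, which stood apart from hspb1 at 12.9 ± 3.52 RPKM. From hspb1 through hsp90aa1.2 at 11.8 ± 2.11, hsp70.3 at 6.95 ± 3.64, dnajb1b at 6.89 ± 1.86, hsp70l at 6.51 ± 4.52 and hsp70.2 at 3.53 ± 1.90 RPKM, each neighbour overlapped the next. The lowest, apart from hsp70.2, was hsp70.1 at 0.710 ± 0.557 RPKM.

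Genes with a pattern like that of a member were sought by the root mean square difference of centred log2 CPM over the 6 libraries, among 14777 genes with a proper symbol and a mean of at least 1 RPKM. For hsp70.3 the nearest genes were hsp70.2, hsp70l and hsp70.1, with differences of 0.07, 0.20 and 0.25. These copies are close relatives, and the part of reads matching several copies in their likeness was not tested. Next came the transcription factor genes cebpb and cebpd of the C/EBP family, with 0.28 and 0.31. In cebpb the values were 153.21, 147.63 and 221.71 RPKM in the knockouts, against 51.72, 26.21 and 38.16 RPKM in the controls (edgeR adjusted p = 0.0266). It had the same highest and lowest libraries as hsp70.3, with a smaller ratio of highest to lowest control. Genes found by likeness share such features through the search itself, so neither these features nor their p-values test a link to the member. The gene cebpd did not pass the threshold (edgeR adjusted p = 0.272). For hspb9 the nearest were lyrm5b, paqr5b, pbld2, gbgt1l4 and ednrba, with differences of 0.10 to 0.13 and edgeR adjusted p-values of 0.118 to 0.494. Of these, ednrba, an endothelin receptor gene, stood at 9.23, 7.89 and 6.15 RPKM in the knockouts, against 13.78, 17.54 and 9.60 RPKM in the controls. For hsp90aa1.1 the nearest were INCENP, arhgef39, rasd1, kat5b and rpl26, with differences of 0.04 to 0.05 and edgeR adjusted p-values of 0.775 to 0.823.

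The wider chaperone system was read from a list of 88 further symbols in 7 roles, of which 77 were in the table and 76 were tested. It held no gene past the threshold in either direction by edgeR or by DESeq2. Of all genes, edgeR called 0.102% higher and 0.0146% lower, and DESeq2 0.835% and 0.196%. At such shares few or no calls would be met in any list of this length. At an unadjusted p under 0.05, 5 of the 76 were higher and 2 lower by edgeR, against 4.06% and 3.41% of all genes tested. The median log2 fold change was 0.05, against 0.60 for the heat-shock genes above. In TMM-scaled CPM 12 had all knockouts above all controls and 5 all knockouts below, against 7.62% and 7.44% of all genes tested. Log2 fold changes in the list ran from -0.56 in hspb7 to 1.28 in cryaa, so that none reached those of the Hsp70 copies, as the plot of fold changes shows.

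**Figure D4:**
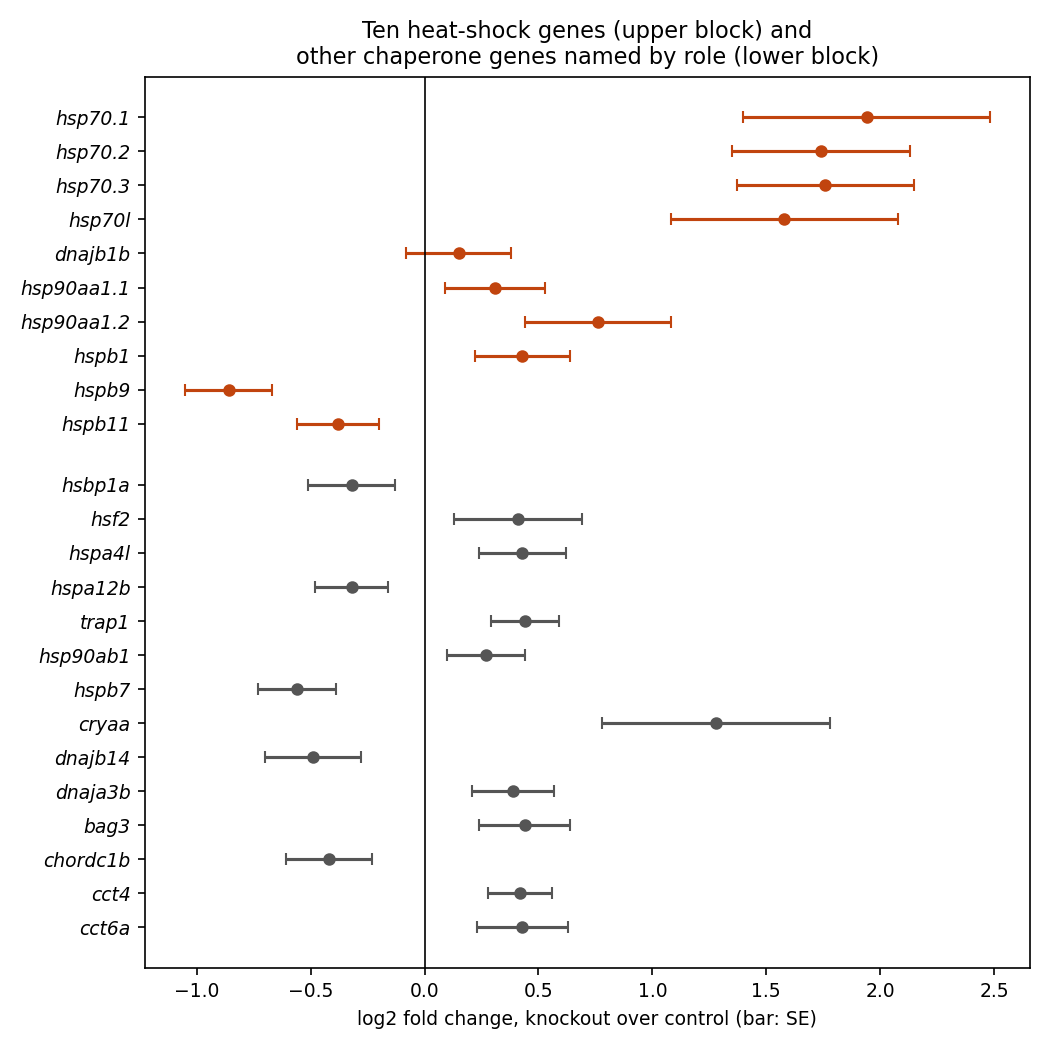
Log2 fold change, knockout over control, with bars of 1 standard error from the edgeR fit, for the heat-shock genes in the upper block and for the 2 chaperone genes of smallest p per role in the lower block. The Hsp70 copies lie between 1.58 and 1.94, hspb9 at -0.86, and the lower block between -0.56 and 1.28, the latter being cryaa.

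Among the heat-shock factors and their binding proteins, 5 tested, hsf1, the main activator of the response, stood at 7.66, 7.16 and 6.83 RPKM in the knockouts, against 7.73, 8.20 and 7.19 RPKM in the controls. Its groups overlapped at nearly the same level. The related gene hsf2 stood at 12.62, 13.91 and 13.64 RPKM, against 5.80, 12.60 and 12.69 RPKM in the controls, where control 1 alone was low. The gene hsbp1a, for a protein that binds heat-shock factors and restrains them, stood at 15.83, 17.53 and 14.80 RPKM in the knockouts, against 19.22, 25.73 and 17.11 RPKM in the controls. Knockout 2 lay above control 3 there, so these groups overlapped too.

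In the other Hsp70 and Hsp110 genes, 11 tested, hspa4l, for a nucleotide exchange partner of Hsp70, stood at 7.50, 7.58 and 9.41 RPKM in the knockouts, against 5.87, 5.41 and 7.39 RPKM in the controls. The distant family member hspa12b had a log2 fold change of -0.32 ± 0.16 (SE). In the Hsp90 family, trap1, the mitochondrial Hsp90, stood at 17.99, 17.53 and 17.63 RPKM in the knockouts, against 14.64, 11.65 and 13.85 RPKM in the controls. The constitutive gene hsp90ab1 stood at 776.23, 762.47 and 932.66 RPKM, against 694.38, 616.25 and 788.04 RPKM in the controls. The knockouts lay above the controls in trap1 and overlapped them in hsp90ab1. For these 4 genes edgeR gave adjusted p-values of 0.52 to 0.763.

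Among the other small heat-shock genes, 8 tested, hspb7, known for a role in the heart, was lower in the knockouts, at 10.38, 11.11 and 11.57 RPKM, against 18.19, 16.05 and 15.78 RPKM in the controls (edgeR adjusted p = 0.413). The groups did not overlap. The lens gene cryaa, for alpha A-crystallin, stood at 9.83, 12.64 and 20.77 RPKM in the knockouts, against 3.85, 3.39 and 11.13 RPKM in the controls (edgeR adjusted p = 0.625). Control 3 lay above knockout 1. The 7 lens marker genes, all detected, summed to 962, 957 and 1968 RPKM in knockouts 1, 2 and 3, against 490, 460 and 1165 RPKM in controls 1, 2 and 3. Knockout 3 was the highest library both for the lens sum and for hsp70l, and control 2 was the lowest for both. The other Hsp70 copies and cebpb had the same highest and lowest libraries, so this match is not particular to hsp70l. Among the controls, control 3 had the most lens RNA and control 1 the most hsp70l. The part of lens RNA in the hsp70l values was not tested.

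Of 15 J-domain genes tested, dnajb14 stood at 6.39, 6.18 and 4.79 RPKM in the knockouts, against 8.89, 9.85 and 6.40 RPKM in the controls. The knockouts lay below the controls there, but knockout 1 only barely below control 3. The mitochondrial gene dnaja3b stood at 4.93, 5.38 and 5.39 RPKM, against 4.13, 4.35 and 3.85 RPKM in the controls. Of 24 co-chaperone genes tested, bag3, for an Hsp70 partner that also binds small heat-shock proteins, stood at 10.75, 11.38 and 16.82 RPKM in the knockouts, against values from 9.02 to 10.4 RPKM in the controls. The knockouts lay above the controls, narrowly in knockout 1 and most in knockout 3. The Hsp90 co-chaperone gene chordc1b stood at 29.87, 30.39 and 19.72 RPKM, against 37.60, 37.78 and 34.51 RPKM in the controls, with the lowest value in knockout 3. For these 4 genes edgeR gave adjusted p-values of 0.651 to 0.688. Among chaperonin genes, 11 tested, the TRiC subunit gene cct4 stood at 191.06, 187.65 and 189.64 RPKM in the knockouts, against 143.18, 135.27 and 156.69 RPKM in the controls (edgeR adjusted p = 0.529). The subunit gene cct6a had a log2 fold change of 0.43 ± 0.20 (SE), and its groups overlapped.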

How the data were processed

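The authors deposited 1 table with read counts and RPKM values per Ensembl gene and library. Per the submitters' processing notes, Trimmomatic 0.30, HISAT2 2.0.1, HTSeq 0.6.1, DESeq and build Zv9 were used, with no settings given. Whether counting used strand is not given in these sources, and reads of overlapping genes cannot be told apart. The deposited RPKM equal the deposited counts over exonic length and library total within 0.005. The table has 6 more per-sample columns, which match no sample of the labels and were left aside.

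Counts were filtered with filterByExpr, scaled by TMM and tested with edgeR 4.0.16 (robust quasi-likelihood, R 4.3.3, no covariate, Benjamini-Hochberg over 20555 genes, threshold 0.05). Standard errors derive from the F statistic. Log2 CPM had a prior count of 2. The procedure was run on simulated data with independent libraries, the same dispersion in every gene and changes in well-counted genes only. These data differ, since knockouts 1 and 2 are nearly alike, so that run does not check the calls given here. DESeq2 1.42.0 and the other alternatives are given at the end. The members and lists were chosen with earlier results of these data known. All members are named, and from the wider list the 2 genes of smallest p per role. The list genes hsf1, hspa8, dnaja2, unc45b and smyd1b lie outside that rule and were picked with their values in view. Likeness was computed for hsp70.3, hspb9 and hsp90aa1.1, with 5 genes named for each. Between 12877132 and 18721589 reads per library limit the counting precision. No sequence is printed.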

Additional observations from a re-analysis of the deposited data

How the results depend on the processing

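With DESeq2 in place of edgeR, 3 members were called higher and 1 lower, against 0 and 0, while calls over all genes numbered 231, against 24. Every other alternative, namely DESeq2 size factors, no filter, the replicate block, knockouts 1 and 2 summed, and each library left out, gave 0 and 0. Calls over all genes in those settings ran from 0 without control 2 to 206 without knockout 3, and numbered 16 with the pair summed. With so few genes called, the lack of calls among the members says little about them. The sign of every member's log2 fold change was kept under all 11 alternatives, except that dnajb1b was -0.03 without control 2, its values with 1 library left out running from -0.03 to 0.37. Members with all knockouts above all controls numbered 6 with all libraries and 7 without knockout 3. Those with all knockouts below numbered 1, and 2 with knockouts 1 and 2 summed, while leaving out 1 library gave 1 to 2. With the pair summed, 9.74% of all genes lay above and 10% below. In the wider list, leaving out 1 library gave 13 to 22 genes with all knockouts above and 7 to 9 with all knockouts below, against 12 and 5. Over all genes, leaving out 1 library gave 10% to 16.7% above and 10.5% to 15.9% below, against 7.62% and 7.44% with all libraries. Fewer libraries separate more easily. With the replicate block hsp70.3 had a log2 fold change of 1.89 (edgeR adjusted p = 0.168) and no call changed. Libraries of the same number did not deviate together (correlations across genes of 0.0277, -0.0642 and -0.00536), and not every library correlated best with its own number. The sum of the Hsp70 copies had a log2 ratio of 1.67, and 1.63 to 1.73 without any 1 copy. The labels do not say whether the nearly alike knockouts 1 and 2 came from separate pools. With the pair summed, the edgeR adjusted p was 0.541 for hsp70.3 and 0.47 for hspb9. DESeq2 was not run with the pair summed.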

Other observations

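The annotation term for response to heat, as carried by the deposited table, holds 12 genes, all tested. Of these, 6 had all knockouts above all controls in TMM-scaled CPM and 0 all knockouts below, against 7.62% and 7.44% of all genes tested. Beyond the members hsp70.1, hsp70l, hsp90aa1.2 and hspb1, they were dnaja3b and dnaja2. As the members were chosen with earlier results known, the counts for the term describe it and do not test it. The gene dnaja2 stood at 69.23, 71.04 and 74.75 RPKM in the knockouts, against 66.49, 60.90 and 66.66 RPKM in the controls. No gene of the term passed by edgeR, and 3 were higher at an unadjusted p under 0.05, against 4.06% of all genes. These were hsp70.1, hsp70l and hsp90aa1.2, described above, and DESeq2 called hsp70.1, as it called 0.835% of all genes higher.

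Of the 57 genes annotated with unfolded protein binding, 56 were tested and had a median log2 fold change of 0.09. The muscle myosin chaperone gene unc45b, which works with hsp90aa1.1, stood at 22.69, 23.03 and 19.13 RPKM in the knockouts, against 19.50, 15.85 and 20.52 RPKM in the controls. Like hsp90aa1.1, it was lower in knockout 3 than in knockouts 1 and 2 and lowest in control 2. The sarcomere methyltransferase gene smyd1b, a partner of both, stood at 31.24, 29.39 and 33.76 RPKM, against 27.68, 27.13 and 28.86 RPKM in the controls, and here knockout 3 was the highest library. Both were picked with their values already in view.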
